A study of Mus musculus with 4 samples.

Results

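The ion channel and calcium handling genes of the mouse islet were 37 genes that carry the electrical signal and the calcium signal of islet cells. They were taken by gene symbol from a table of 24012 symbols, and where a symbol had several entries the one with the highest mean over the 4 libraries stood for the gene. All 37 were found, with 99 entries of which 51 were distinct. They comprised 2 genes of the ATP-sensitive potassium (KATP) channel, 9 other potassium channel genes, 8 genes of voltage-gated calcium channels, 3 sodium channel genes, 5 TRP and chloride channel genes, 8 genes of the calcium store and 2 genes of a plasma membrane exchanger and pump.

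The libraries were made from whole islets of adult male C57bl6 mice of 3 months, described as wild type, and hold all islet cell types mixed. Islets were pooled, kept overnight at 11 mM glucose, held for 2 h at 2.8 mM glucose and then kept at 2.8 mM or moved to 16.8 mM glucose, with 2 libraries per concentration. The series' design gives 12 h for this exposure at either concentration. The labels differ, with 12 h for the libraries at 16.8 mM but 2 h for those at 2.8 mM, so the groups may also differ in time. No source names separate animals for the libraries, so every p-value measures only the spread between libraries of pooled islets, which may be technical.

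In a beta cell at low glucose, open KATP channels hold the membrane at a negative potential. Glucose metabolism raises the ratio of ATP to ADP and closes them, the membrane depolarises, voltage-gated calcium channels open, and calcium entry triggers the release of insulin, while other potassium channels bring the membrane back. Pumps of the SERCA family load calcium into the endoplasmic reticulum, and receptor channels release it again. In bulk libraries fewer cells of a type and less RNA per cell cannot be told apart.

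Values were RPKM, which scale the reads of a transcript by its length in kilobases and by the library's depth. In this table the length fitted by the values was the genomic span of the transcript, introns included: with the span, 79.5% of low values came out as whole reads, against 7.48% with the summed exons. Long genes therefore had low values. This fit shows the length used, not which reads were counted, and the paper's methods name reads on RefSeq exons for its count tables. If reads in introns were counted, a value can hold reads of another transcript inside an intron. Whether they were counted was not tested. The 4 libraries held between 50800000 and 60710000 reads. *Ins2*, the main insulin gene, stood at 18136 and 15943 RPKM at 2.8 mM and at 30018 and 27396 RPKM at 16.8 mM. Of 6 beta cell markers 5 rose, where 8.68% of all entries tested did (summed level 21307 and 19070 RPKM against 41011 and 38068 RPKM). Most of this beta cell sum was *Ins2*. The summed levels of 4 delta cell markers (598 and 447 against 704 and 696 RPKM) and 4 ductal markers (40.3 and 35.2 against 40.9 and 46.7 RPKM) did not overlap between the concentrations either, although no delta cell or ductal marker rose and the ductal marker *Krt7* fell. Most of the delta cell sum was *Sst*. The sums of the alpha, acinar, endothelial, leukocyte and stromal markers overlapped, although 1 of 5 endothelial markers, *Flt1*, rose. The sum of the glia markers is not reported here. *Gcg*, which encodes glucagon, lay between 1474 and 2155 RPKM, *Sst*, which encodes somatostatin, between 440 and 692 RPKM, and *Ppy* between 729 and 1138 RPKM. The first markers of other cell types were lower, with *Prss2* of acinar cells between 19.7 and 90.8 RPKM, *Cd68* of macrophages between 6.76 and 9.74 RPKM, *Col1a1* of fibroblasts between 0.596 and 1.43 RPKM and *Pecam1* of endothelium between 0.176 and 0.459 RPKM. The part of these shifts in the results below was not tested.

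Most of the channel genes were low on this scale. Of the 37, 12 had a mean of at least 1 RPKM, and the means ran from 0.00168 RPKM for *Ryr2*, the ryanodine receptor channel of the calcium store, to 26.1 RPKM for *Kcnj11*, the pore subunit of the KATP channel. The median genomic span of the 37 genes was 111 kb, and 19 spanned over 100 kb. On a scale of reads per kilobase of summed exons, set for the 27 genes with 1 distinct entry, the order among these changed. *Kcnj11* and *Atp2a2*, the highest of the 37 over the span, have 2 distinct entries each and were not ranked on it. Among the 27, *Abcc8*, the sulfonylurea receptor subunit of the KATP channel, came first with a mean of 148. *Atp1b1* with 63.7 and *Atp2a3* with 62.5, whose libraries overlapped, came next. Whether *Abcc8* would come first beside *Kcnj11* and *Atp2a2* was not tested. Within the 27, *Stim1*, the calcium sensor of the store, moved from rank 10 by span to rank 7 by exons. *Slc8a1*, a sodium-calcium exchanger, moved from 18 to 8. *Cacna1e*, the pore of R-type calcium channels, and *Ryr2* were last on both scales, with means of 0.129 and 0.051 per kilobase of exons. Reads in introns, if they were counted, enter either scale, so neither can be taken as a measure of mature messenger RNA alone.

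**Figure D1:**
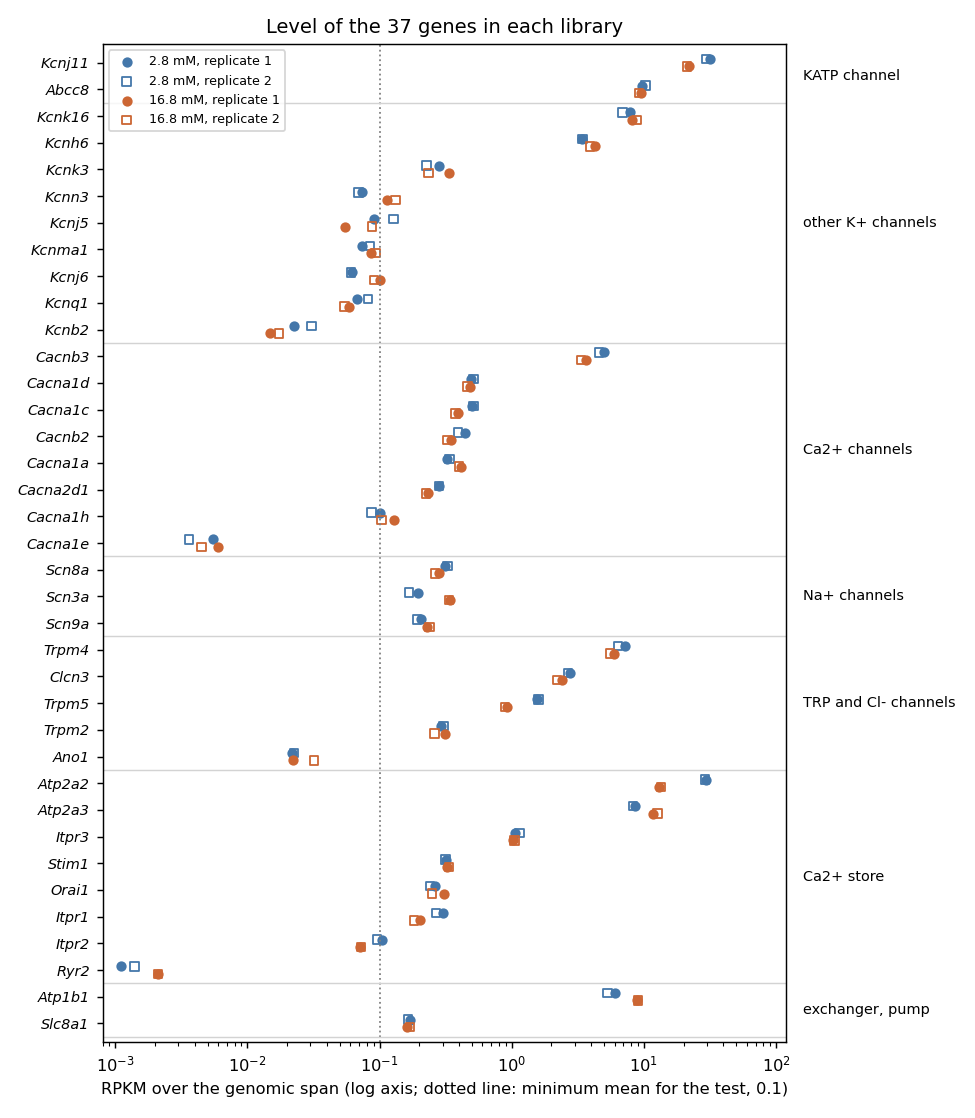
RPKM over the genomic span (log axis) of each of the 37 genes in each of the 4 libraries, by role, with circles for replicate 1 and squares for replicate 2. *Kcnj11* and *Atp2a2* stand highest and *Ryr2* and *Cacna1e* lowest, and the 10 genes that were not tested have means left of the dotted line at 0.1 RPKM.

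The concentrations were compared with limma on log2(RPKM + 0.1) over all distinct entries with a mean of at least 0.1 RPKM, with adjustment over the whole table. Of the 37 genes, 27 reached this minimum. At 16.8 mM, 3 rose (*Scn3a*, *Atp2a3* and *Atp1b1*) and 6 fell (*Kcnj11*, *Cacna1c*, *Cacnb3*, *Trpm5*, *Itpr1* and *Atp2a2*) at an adjusted p under 0.05. Of all 16234 entries tested, 29.8% passed, 8.68% upward and 21.2% downward, so the 9 of 27 genes, or 33.3%, lay near that background. In 23 of the 27 genes the concentrations did not overlap, where the same held for 71.3% of all entries tested. The median log2 fold change was -0.07 over the 27 genes and -0.12 over all entries. Centring the libraries on their medians moved the latter by 0.11, and the share of all calls that were upward went from 29.1% to 46.4%. The fold changes of the 9 genes that passed are therefore also given relative to the median of all entries.

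**Figure D2:**
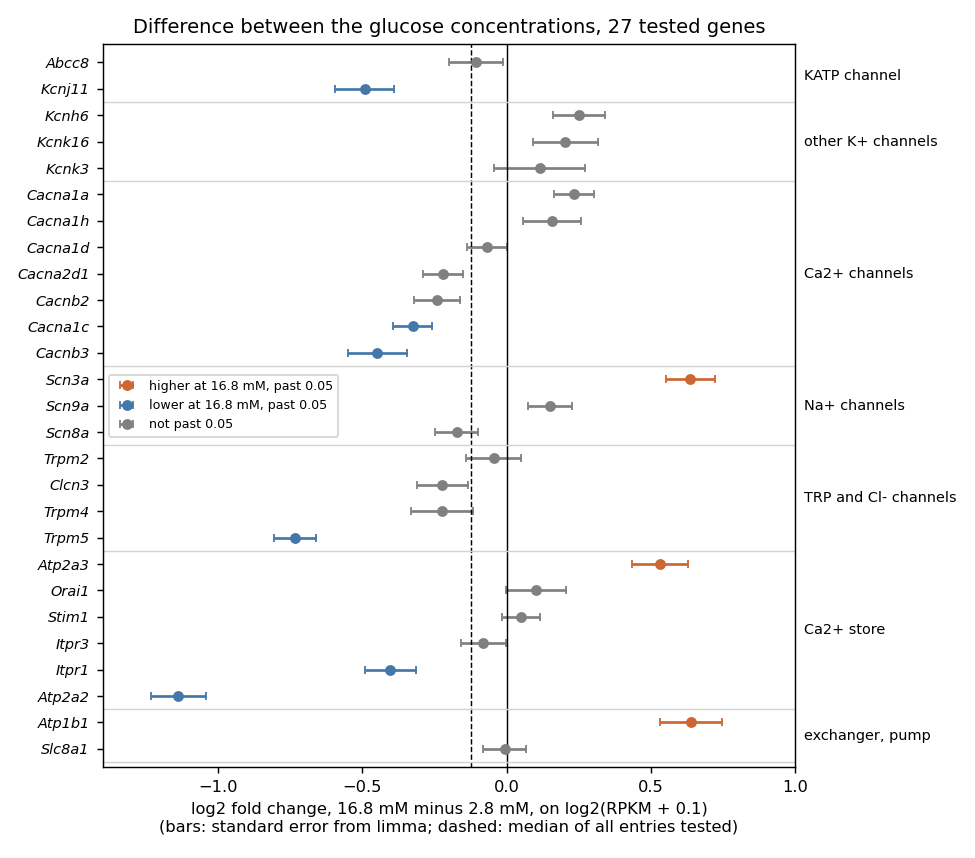
Log2 fold change of the 27 tested genes, 16.8 mM minus 2.8 mM, on log2(RPKM + 0.1), with the standard error from limma, by role. The solid line is at 0 and the dashed line at the median of all entries (-0.12). *Atp2a2* lies farthest to the left, and *Scn3a* and *Atp1b1* farthest to the right.

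The genes of the KATP channel lie next to each other on chromosome 7 of NCBI build 37, *Kcnj11* at 53352533 to 53355607 and *Abcc8* at 53359893 to 53435403. *Kcnj11* read 31.6 and 29.4 RPKM at 2.8 mM and 22.1 and 21.2 RPKM at 16.8 mM. Both 16.8 mM libraries were below both 2.8 mM libraries, and the mean was 1.41 times as high at 2.8 mM. Its log2 fold change was -0.49 (SE 0.10, limma adjusted p = 0.0297), or -0.37 relative to the median of all entries. The second, slightly lower entry of *Kcnj11* had a log2 fold change of -0.47. *Abcc8* read 9.76 and 10.3 RPKM at 2.8 mM and 9.46 and 9.16 RPKM at 16.8 mM. Its groups did not overlap either, but the log2 fold change of -0.11 (SE 0.09) did not pass the test (limma adjusted p = 0.419) and turned to 0.00 with the libraries centred on their medians. The ratio of *Kcnj11* to *Abcc8* RPKM was 3.24 and 2.85 at 2.8 mM and 2.34 and 2.32 at 16.8 mM. The level of such a ratio, here and below, depends on the spans of the genes, and only its change between libraries does not. In reads *Abcc8* was the higher gene, with 43093 against an estimated 5686 for *Kcnj11* in replicate 1 at 2.8 mM. With 2 against 2 libraries an exact permutation test of such a ratio, two-sided, cannot go below 0.333, which was its value here.

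None of the 3 other potassium channel genes tested passed in limma (1 at an unadjusted p under 0.05 and 1 by voom, *Kcnh6* in either case), and the other 6 of the 9 were under the minimum. Voom on reconstructed reads covered all 9 and called 6, where 42.2% of all entries passed. These were *Kcnh6*, *Kcnn3*, *Kcnj6*, *Kcnb2*, *Kcnq1* and *Kcnj5*. *Kcnk16*, a two-pore channel of the pancreas that carries a background current, was the highest over the span, with 7.82 and 6.91 RPKM at 2.8 mM and 8.13 and 8.86 RPKM at 16.8 mM. *Kcnh6*, a channel of the ERG family, read 3.41 and 3.44 RPKM at 2.8 mM and 4.26 and 3.92 RPKM at 16.8 mM. Its log2 fold change of 0.25 (SE 0.09) had a limma adjusted p of 0.101, which became 0.0164 with the libraries centred on their medians, where 40.4% of all entries passed, and 0.0202 after quantile normalization, where 41.3% did. *Kcnk3*, another two-pore channel gene, overlapped between the groups, between 0.226 and 0.333 RPKM. It was higher in replicate 1 than in replicate 2 at either concentration.

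The 6 potassium channel genes under the minimum were described without that test. *Kcnn3*, a small-conductance channel opened by calcium, read 0.0740 and 0.0694 RPKM at 2.8 mM and 0.113 and 0.133 RPKM at 16.8 mM, and its mean was 1.71 times as high at 16.8 mM. *Kcnj6*, a channel opened by G proteins, read 0.0618 and 0.0607 RPKM at 2.8 mM and 0.101 and 0.0904 RPKM at 16.8 mM, 1.56 times as high. Both had groups that did not overlap, and both passed when no minimum was set, with limma adjusted p of 0.0484 and 0.0495, where 13.5% of all entries passed. In the other direction, *Kcnb2*, a delayed rectifier that helps to end the action potential, read 0.0224 and 0.0305 RPKM at 2.8 mM and 0.0147 and 0.0174 RPKM at 16.8 mM. It did not pass without a minimum (limma adjusted p = 0.152), and on reconstructed reads limma's voom gave a log2 fold change of -0.71 with an adjusted p of 0.00264, where 42.2% of all entries passed. *Kcnj5*, a partner of *Kcnj6* in G protein-gated channels, rested on between 98 and 195 reads a library and read 0.0900 and 0.127 RPKM at 2.8 mM and 0.0548 and 0.0875 RPKM at 16.8 mM. *Kcnma1*, the large-conductance channel opened by calcium and voltage, lay between 0.0731 and 0.0930 RPKM with a ratio of means of 1.13.

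The value of *Kcnq1*, a voltage-gated channel, may hold reads of another transcript. Its span holds *Kcnq1ot1*, a long non-coding RNA of 83437 bases on the opposite strand, and whether the counting used strand is not stated. *Kcnq1* read 0.0680 and 0.0820 RPKM at 2.8 mM and 0.0589 and 0.0542 RPKM at 16.8 mM, or between 881 and 1363 reads. The reads in *Kcnq1ot1* came to 91.4% and 94.2% of these at 2.8 mM and to 83.0% and 86.3% at 16.8 mM. Whether reads in introns were counted to *Kcnq1* was not tested. If all of these were, the remainder at 2.8 mM was 110 reads in replicate 1 and 79 in replicate 2. At 16.8 mM it was 195 and 121, higher where the whole value was lower. The voom call of *Kcnq1*, with a log2 fold change of -0.40, was made on the whole value. Whether that call belongs to *Kcnq1* or to *Kcnq1ot1* was not tested. Lengths for this estimate came from RefSeq on GRCm38, and small differences in length change the remainder.

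Among the genes of voltage-gated calcium channels, 2 fell, or 28.6% of the 7 tested beside 29.8% of all entries. Of the rest, 5 did not pass and 1 was under the minimum. *Cacnb3*, a cytoplasmic beta subunit that sets the gating and membrane level of the channels, was the highest of the 8 over the span. It lies on chromosome 15 at 98462651 to 98474961 and read 5.02 and 4.59 RPKM at 2.8 mM and 3.65 and 3.34 RPKM at 16.8 mM. Both 2.8 mM libraries were above both 16.8 mM libraries, and the log2 fold change was -0.45 (SE 0.10, limma adjusted p = 0.0365), or -0.32 relative to the median of all entries. With no minimum its adjusted p was 0.0555. *Cacnb2*, another beta subunit, read 0.440 and 0.393 RPKM at 2.8 mM and 0.346 and 0.328 RPKM at 16.8 mM, and its log2 fold change was -0.24 (SE 0.08, limma adjusted p = 0.0865). The lower entries of *Cacnb2* had log2 fold changes of -0.09 and -0.10 and did not pass.

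The pore subunits did not move alike. *Cacna1c*, the pore of the L-type channel Cav1.2, on chromosome 6 at 118542314 to 119146249, read 0.499 and 0.516 RPKM at 2.8 mM and 0.393 and 0.377 RPKM at 16.8 mM. Its log2 fold change was -0.33 (SE 0.07, limma adjusted p = 0.0304), or -0.20 relative to the median of all entries. The call was lost after quantile normalization (0.0508), with median centring (0.0676) and with no minimum (0.0637), and its other entries had log2 fold changes of -0.23 and -0.22 and did not pass. *Dcp1b* overlaps the end of *Cacna1c*. If the reads of *Dcp1b* were even along its length, those in the overlap came to between 2.97% and 3.64% of those of *Cacna1c*. *Cacna1d*, the pore of the other L-type channel of the islet, Cav1.3, stayed between 0.462 and 0.513 RPKM, with a log2 fold change of -0.07 (SE 0.07) that turned to 0.04 under either of the other scalings. *Cacna1a*, the pore of P/Q-type channels, read 0.326 and 0.339 RPKM at 2.8 mM and 0.417 and 0.400 RPKM at 16.8 mM. Its log2 fold change was 0.23 (SE 0.07, limma adjusted p = 0.0648), and it passed with median centring (0.0271) and quantile normalization (0.0266). The ratio of *Cacna1a* to *Cacna1c* was 0.652 and 0.657 at 2.8 mM and 1.06 in both 16.8 mM libraries, a pair chosen after the values were seen.

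*Cacna2d1*, an extracellular subunit that brings the channels to the membrane, read 0.283 and 0.281 RPKM at 2.8 mM and 0.233 and 0.224 RPKM at 16.8 mM (limma adjusted p = 0.0762). *Cacna1h*, the pore of a T-type channel that opens near rest, lay between 0.0870 and 0.129 RPKM and just above the minimum. *Cacna1e* was the lowest calcium channel gene, at 0.00360 to 0.00600 RPKM and 62 to 121 reads, with overlapping groups.

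Of the sodium channel genes, which carry the fast upstroke of the action potential, *Scn3a* rose. It lies on chromosome 2 at 65295175 to 65405684 and read 0.196 and 0.168 RPKM at 2.8 mM and 0.342 and 0.334 RPKM at 16.8 mM. The groups lay far apart beside the spread within each, and the mean was 1.86 times as high at 16.8 mM, and its log2 fold change was 0.64 (SE 0.08, limma adjusted p = 0.0129) or 0.76 relative to the median of all entries. *Scn9a*, its neighbour on chromosome 2, read 0.207 and 0.193 RPKM at 2.8 mM and 0.227 and 0.239 RPKM at 16.8 mM and did not pass (limma adjusted p = 0.193). Part of the *Scn9a* span is shared with *Gm13629* on the opposite strand. If the reads of *Gm13629* were even along its length, its reads in that stretch came to between 54.3% and 55.5% of those of *Scn9a*. *Scn8a* read 0.313 and 0.327 RPKM at 2.8 mM and 0.284 and 0.262 RPKM at 16.8 mM, and its log2 fold change was -0.17 (SE 0.07, limma adjusted p = 0.145). For the whole values, whether *Scn3a* or *Scn9a* stood higher at 16.8 mM depended on the scale. *Scn3a* was above *Scn9a* in RPKM over the span, but per kilobase of exons it had 3.00 and 2.93 against 3.28 and 3.45. The *Scn9a* values on both scales include the stretch shared with *Gm13629*. By the estimate above, 972 and 842 of 2132 and 1878 *Scn9a* reads were left without it at 16.8 mM. The order without the shared reads was not tested.

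Of the 4 TRP and chloride channel genes tested only *Trpm5* passed, or 25% beside 29.8% of all entries. *Trpm5* encodes a channel for monovalent cations that opens when calcium rises inside the cell, and it lies on chromosome 7 at 150255058 to 150280547. It read 1.55 and 1.60 RPKM at 2.8 mM and 0.926 and 0.892 RPKM at 16.8 mM. The libraries of a concentration lay close together, and the mean was 1.73 times as high at 2.8 mM. The log2 fold change was -0.73 (SE 0.07, limma adjusted p = 0.0084), or -0.61 relative to the median of all entries. *Clcn3*, a chloride-proton exchanger of intracellular vesicles, read 2.77 and 2.67 RPKM at 2.8 mM and 2.42 and 2.21 RPKM at 16.8 mM (limma adjusted p = 0.126). *Trpm2*, a calcium-permeable channel opened by ADP-ribose, overlapped between the groups, from 0.260 to 0.312 RPKM.

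*Trpm4*, the closest relative of *Trpm5* among the TRP genes, had the highest value of this group, but its span encloses a pseudogene with a high value. It read 7.15 and 6.35 RPKM at 2.8 mM and 5.95 and 5.57 RPKM at 16.8 mM, and its log2 fold change was -0.22 (SE 0.11, limma adjusted p = 0.175). Its span holds *Rpl14-ps1*, a copy of a ribosomal protein gene of 694 bases that stood between 233 and 299 RPKM. The reads in it came to between 93.2% and 94.3% of those of *Trpm4*. Whether reads in introns were counted to *Trpm4* was not tested. If they were, about 0.457 and 0.442 RPKM were left without them at 2.8 mM, and 0.347 and 0.340 RPKM at 16.8 mM. These remainders lay below *Trpm5* in every library on the same scale, where the RPKM as given set *Trpm4* above *Trpm5*.

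**Figure D3:**
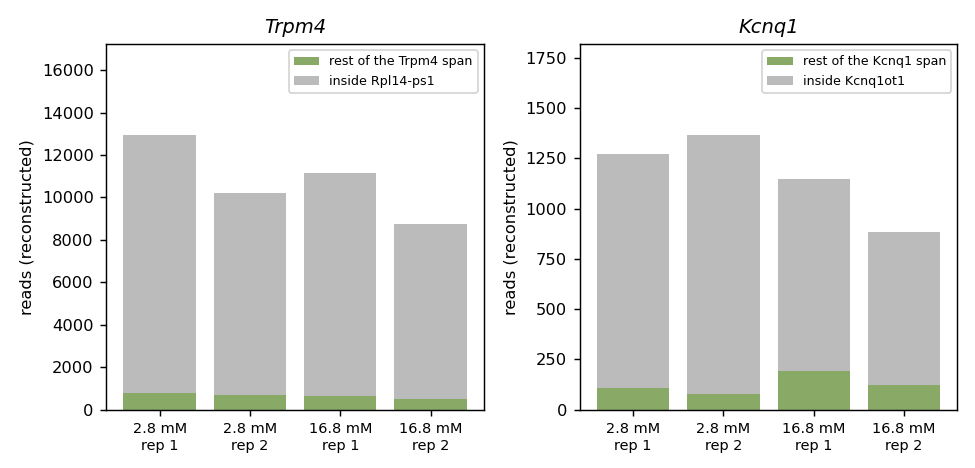
Reconstructed reads of *Trpm4* and *Kcnq1* in each library, split into those estimated for the enclosed transcript (grey) and the rest (green). The split holds only if reads in introns were counted. The reads estimated for the enclosed transcript come to 93.2% to 94.3% of those of *Trpm4* and 83.0% to 94.2% of those of *Kcnq1*.

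*Ano1*, a chloride channel opened by calcium and known from exocrine cells, read 0.0219 and 0.0226 RPKM at 2.8 mM and 0.0223 and 0.0319 RPKM at 16.8 mM, so that 1 library stood above the other 3. The summed level of 6 acinar markers was 78.2 and 228 RPKM at 2.8 mM and 192 and 407 RPKM at 16.8 mM, with none at 0, and was highest in the same library. Of 4 ductal markers, *Krt19* was also highest there, at 7.56 RPKM against 1.27 to 4.31 RPKM in the others, and so were *Spp1* and *Sox9*, while *Krt7*, which fell at 16.8 mM, was lowest there at 12.8 RPKM. The part of exocrine RNA in the *Ano1* value was not tested.

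The calcium store held the largest fall and 1 of the rises. *Atp2a2* encodes SERCA2, the widespread pump that loads the endoplasmic reticulum with calcium, and lies on chromosome 5 at 122903531 to 122952183. It read 29.4 and 28.9 RPKM at 2.8 mM and 12.9 and 13.4 RPKM at 16.8 mM. The libraries of a concentration differed by little beside the gap between the groups, and the mean was 2.21 times as high at 2.8 mM. The log2 fold change was -1.14 (SE 0.09, limma adjusted p = 0.00675), the largest in size among the 27 genes, or -1.01 relative to the median of all entries. Its second entry gave -1.13. *Atp2a3* encodes SERCA3, the pump of lower calcium affinity that beta cells also carry, and lies on chromosome 11 at 72774671 to 72806546. It read 8.59 and 8.31 RPKM at 2.8 mM and 11.8 and 12.7 RPKM at 16.8 mM. Its log2 fold change was 0.53 (SE 0.10, limma adjusted p = 0.0232), or 0.66 relative to the median of all entries. The ratio of *Atp2a3* to *Atp2a2* RPKM was 0.293 and 0.287 at 2.8 mM and 0.913 and 0.946 at 16.8 mM. In reads, *Atp2a3* had 16008 against an estimated 83479 for *Atp2a2* in replicate 1 at 2.8 mM, and 22862 against 38233 in replicate 1 at 16.8 mM.

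The release channels of the store lay lower. *Itpr3*, an inositol trisphosphate receptor, lay between 1.02 and 1.14 RPKM, the highest of them over the span though not per kilobase of exons, where the means were 7.70 for *Itpr3* and 7.73 for *Itpr1*. It had a log2 fold change of -0.08 (SE 0.08, limma adjusted p = 0.457) that turned to 0.05 after quantile normalization. *Itpr1*, a second receptor of this family, on chromosome 6 at 108163112 to 108501103, read 0.302 and 0.269 RPKM at 2.8 mM and 0.201 and 0.182 RPKM at 16.8 mM. Both 16.8 mM libraries were below both 2.8 mM libraries, and its log2 fold change was -0.40 (SE 0.09, limma adjusted p = 0.033), or -0.28 relative to the median of all entries. With no minimum its adjusted p was 0.0657. *Itpr2*, the third receptor, was under the minimum and read 0.105 and 0.0952 RPKM at 2.8 mM and 0.0707 and 0.0724 RPKM at 16.8 mM. *Ryr2* spans 554 kb and held only 36 and 40 reads at 2.8 mM. It held 71 and 59 at 16.8 mM, and its ratio of means was 1.68. By voom, where 42.2% of all entries passed, the log2 fold change was -0.49 for *Itpr2* (adjusted p = 0.00113). For *Ryr2* voom gave 0.76 (adjusted p = 0.0487).

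Entry of calcium to refill the store runs through *Stim1* and *Orai1*, the pore in the plasma membrane. *Stim1* stayed between 0.316 and 0.336 RPKM (limma adjusted p = 0.595), and *Orai1* between 0.241 and 0.307 RPKM with overlapping groups. *Stim2*, the second sensor, was not among the 37 genes. It read 0.273 and 0.269 RPKM at 2.8 mM and 0.182 and 0.169 RPKM at 16.8 mM and fell (log2 fold change -0.43, SE 0.07, limma adjusted p = 0.0202).

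Of the plasma membrane transporters, *Atp1b1*, the beta subunit of the sodium-potassium pump, rose. It lies on chromosome 1 at 166367398 to 166388486 and read 6.10 and 5.32 RPKM at 2.8 mM and 8.84 and 9.01 RPKM at 16.8 mM. Both 16.8 mM libraries were well above both 2.8 mM libraries, and the log2 fold change was 0.64 (SE 0.11, limma adjusted p = 0.02), or 0.76 relative to the median of all entries. *Slc8a1* read 0.169 and 0.164 RPKM at 2.8 mM and 0.162 and 0.170 RPKM at 16.8 mM. Its groups overlapped, and the log2 fold change was -0.01 (SE 0.07, limma adjusted p = 0.952).

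**Figure D4:**
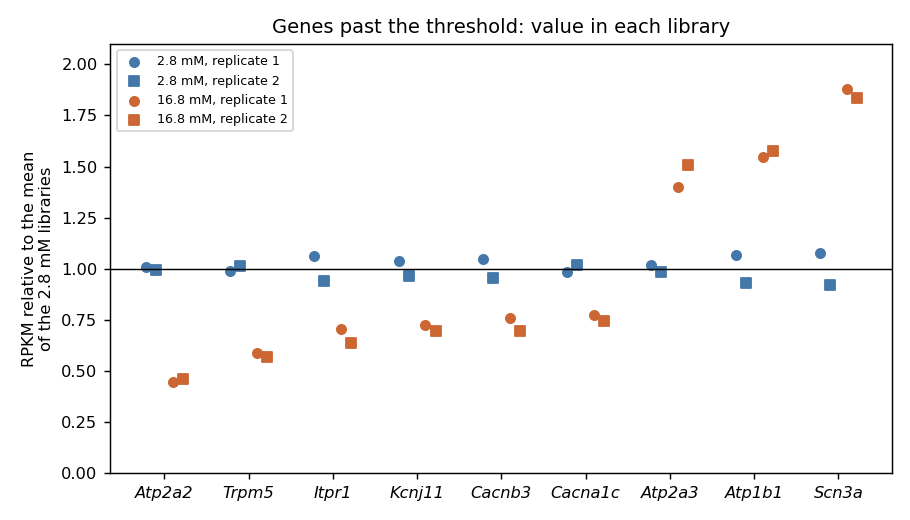
RPKM in each library of the 9 genes that passed the test, divided by the gene's mean over the 2.8 mM libraries. Every 16.8 mM value lies below both 2.8 mM values for the 6 genes on the left, and above both for the 3 on the right.

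The 9 calls rest on 2 libraries per concentration. With 1 library left out, the lone library of its group was taken to vary like the others, and the direction of all 9 held. The call of *Trpm5* was kept in 3 of these 4 fits and lost without 16.8 mM replicate 2 (limma adjusted p = 0.0559). *Atp2a2* was kept without either 2.8 mM library (0.0266 and 0.0254 for replicates 1 and 2) and lost without either 16.8 mM library (0.0516 and 0.0547). *Scn3a* was kept without 2.8 mM replicate 1 (0.039), with 0.0507 to 0.0713 in the other fits. The calls of *Kcnj11*, *Cacna1c*, *Cacnb3*, *Itpr1*, *Atp2a3* and *Atp1b1* were lost in all 4 of these fits, with adjusted p between 0.0512 and 0.162.

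Of the 9 genes that passed, 5 had a promoter in the RefSeq table, which holds 250 bases before and 50 after a start on GRCm38.p6. *Atp2a3*, *Atp1b1* and *Trpm5*, each with a single start there, are shown because they include 2 of the rises and 1 of the falls. Capitals mark GGGCGG or its reverse CCGCCC, the core of a GC box, and CCAAT or its reverse ATTGG, searched on both strands.

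Atp2a3 promoter, chr11:72960919-72961218, plus strand: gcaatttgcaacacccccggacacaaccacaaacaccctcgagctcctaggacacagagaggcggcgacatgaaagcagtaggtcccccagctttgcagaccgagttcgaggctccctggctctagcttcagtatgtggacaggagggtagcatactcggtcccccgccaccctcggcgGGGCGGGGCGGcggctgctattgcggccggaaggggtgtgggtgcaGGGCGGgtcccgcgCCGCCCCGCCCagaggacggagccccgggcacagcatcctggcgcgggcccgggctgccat
Atp1b1 promoter, chr1:164458306-164458605, minus strand: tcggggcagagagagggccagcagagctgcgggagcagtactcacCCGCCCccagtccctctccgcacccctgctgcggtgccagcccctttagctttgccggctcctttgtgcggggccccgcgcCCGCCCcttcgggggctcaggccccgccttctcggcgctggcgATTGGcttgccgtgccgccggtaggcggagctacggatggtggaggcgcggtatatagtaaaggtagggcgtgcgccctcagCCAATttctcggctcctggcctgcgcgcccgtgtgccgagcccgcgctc
Trpm5 promoter, chr7:143094593-143094892, minus strand: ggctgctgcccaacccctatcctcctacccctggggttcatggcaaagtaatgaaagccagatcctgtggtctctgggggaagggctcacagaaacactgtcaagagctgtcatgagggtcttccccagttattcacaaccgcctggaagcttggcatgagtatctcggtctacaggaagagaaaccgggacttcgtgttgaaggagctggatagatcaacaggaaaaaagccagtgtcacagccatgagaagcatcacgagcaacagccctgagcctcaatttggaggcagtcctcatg

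The *Atp2a3* window held 5 matches to GGGCGG, some of them overlapping, and none to CCAAT, at 68.3% G and C. The *Atp1b1* window held 2 matches to each at 71.0% G and C, and the *Trpm5* window held neither at 53.0%. Over all 32851 promoters of this length the median was 52.7%, GGGCGG was found in 35.7% and CCAAT in 37.4%. Such matches are descriptions of sequence, not sites of binding.

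Beyond the 37 genes, 237 other ion channel, calcium store and calcium sensor genes were in the table, and 99 of them were tested. Of these 8 rose and 28 fell, or 36.4% beside 29.8% of all entries, with a median log2 fold change of -0.18 beside -0.12 for all entries. Of 24 other potassium channel genes tested, 2 rose and 6 fell, or 33.3%, with a median of -0.07. *Kcnf1*, a silent subunit that modifies delayed rectifiers, read 0.0572 and 0.0442 RPKM at 2.8 mM and 0.248 and 0.354 RPKM at 16.8 mM (log2 fold change 1.40, SE 0.15, limma adjusted p = 0.0096), and *Kcne4*, an accessory subunit, also rose (0.98). *Kcnj12*, an inward rectifier, read 1.18 and 1.26 RPKM at 2.8 mM and 0.327 and 0.346 RPKM at 16.8 mM, and its log2 fold change was -1.60 (SE 0.07, limma adjusted p = 0.0033). *Kcnh2*, the ERG channel related to *Kcnh6*, fell with a log2 fold change of -0.81, and *Kcnn1*, a relative of *Kcnn3*, with -0.75. The ratio of *Kcnh6* to *Kcnh2* RPKM was 1.27 and 1.35 at 2.8 mM and 2.88 and 2.76 at 16.8 mM.

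Of 18 other calcium channel genes, 1 was tested in limma, and 0 passed (0 at an unadjusted p under 0.05, and by voom 0 for that gene). Voom covered 12 of the 18 and called 4, where 42.2% of all entries passed. Of 4 other sodium channel genes tested, *Scnn1b*, a subunit of the epithelial channel, rose with a log2 fold change of 0.29. Of 19 other TRP and chloride channel genes 1 rose and 8 fell in limma, or 47.4% beside 29.8% of all entries, with a median of -0.34. *Trpc1* rose (0.69), and the lysosomal channels *Mcoln3* (-1.07) and *Mcoln1* (-0.97) and the lysosomal chloride transporter *Clcn7* (-0.67) fell furthest.

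Of 28 other store and transport genes 3 rose and 8 fell, or 39.3% beside the 29.8% of all entries, with a median of -0.18. *Calr*, a calcium-binding chaperone of the endoplasmic reticulum, read 240.2 and 223 RPKM at 2.8 mM and 90.7 and 82.2 RPKM at 16.8 mM (log2 fold change -1.42, SE 0.11, limma adjusted p = 0.0063), in the direction of *Atp2a2*. *Jph3*, which ties the store to the plasma membrane, fell by 1.19 and *Vdac1*, the porin of the outer mitochondrial membrane, by 0.85 on the log2 scale. *Atp2b4*, a plasma membrane calcium pump, rose (0.64), as did *Tpcn2*, a lysosomal channel (0.32). Of 23 calcium sensors and effectors 1 rose and 6 fell, or 30.4%, with a median of -0.18. *Camk2b*, a subunit of a calcium-dependent kinase, went from 2.01 and 1.97 RPKM to 4.11 and 4.09 RPKM (log2 fold change 1.01, SE 0.08, limma adjusted p = 0.0064). *Rcan1*, a regulator of the phosphatase calcineurin (-0.66), and the calcineurin subunits *Ppp3cb* (-0.48) and *Ppp3cc* (-0.47) fell.

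**Figure D5:**
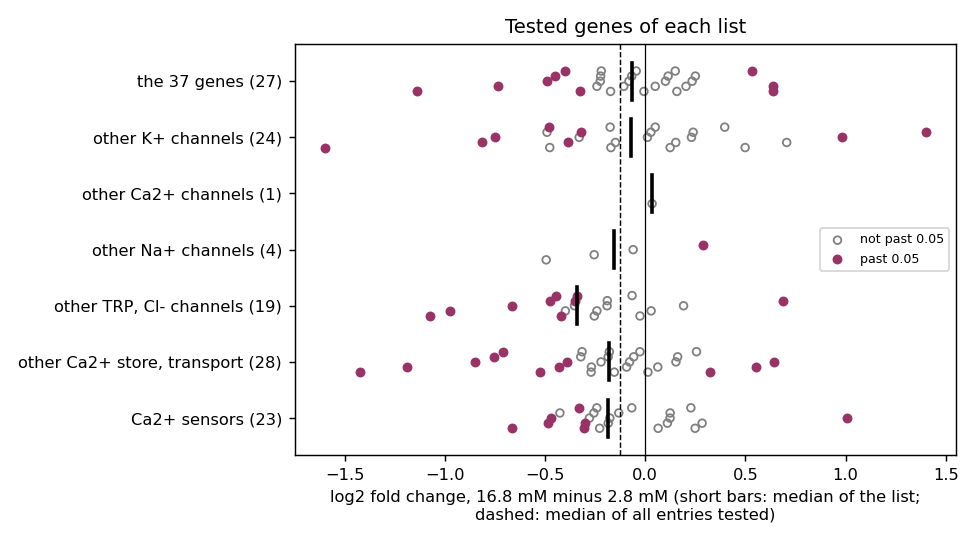
Log2 fold change, 16.8 mM minus 2.8 mM, of each tested gene of each list, with the number tested in brackets, filled where the limma adjusted p was under 0.05. Short bars are list medians and the dashed line is the median of all entries (-0.12). The medians of all lists but the single other calcium channel gene lie below 0, from -0.34 to -0.07.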

How the data were processed

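The authors deposited RPKM values for 4 libraries in 1 table of 33923 entries, 28047 of them distinct, with 1 column per library. Per the labels, the authors used STAR, bedtools, DESeq and the mm9 genome (NCBI build 37), with no versions given.

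Depth was recovered from the steps of the microRNA values, of which 98.6% to 98.9% were whole reads within 0.05. Reads were reconstructed from RPKM, Gencode span and depth, and are estimates, most of all for genes with several entries. PCR duplicates cannot be told apart.

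The values were tested as log2(RPKM + 0.1) with limma 3.58.1 in R 4.3.3, two-sided, with a variance trend and Benjamini-Hochberg adjustment over 16234 entries with a mean of at least 0.1 RPKM, at 0.05. A fold change on this scale understates that of low genes. Tables and figures used Python 3.11.15, pandas 2.3.3, numpy 2.4.6 and matplotlib 3.10.9. The 37 genes, the lists, the test and its alternatives were chosen with earlier results of these data known. All 37 genes were named, and of each other list up to 3 of the largest rises and 3 of the largest falls among calls, with the first marker of each cell type. The values of 2 genes that this rule covers are not reported here. *Stim2*, the ratios and the overlapping genes were chosen after the values were seen.

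The alternatives to these choices were a fit without the variance trend, quantile normalization, centring on the median, 0.02 or 0.5 RPKM added, no minimum, a minimum of 1 RPKM, the replicate block, each library left out, a single entry for each gene, voom for entries with a mean of at least 20 reconstructed reads, and a threshold of 0.01.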

Additional observations from a re-analysis of the deposited data

How the results depend on the processing

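With 2 libraries per concentration the results rest on few residual degrees of freedom, and low genes such as *Ryr2* rest on few reads. All 9 calls held without the variance trend, with 0.02 or 0.5 RPKM added, with 1 entry per gene and by voom. With each library left out, calls ranged from 385 to 1498 of all entries, from 0 to 3 of the 37 genes and from 4 to 13 of the other list genes, against 4845, 9 and 36. At 0.01 there were 776, 2 and 9. Voom covered 17499 entries, all 37 genes and 177 other list genes, against 16234, 27 and 99 in the main fit. It called 7387, or 42.2%, 20 and 74 of these. With a minimum of 1 RPKM fewer were tested, and 2593 of 7867 entries, 6 of 12 genes and 14 of 37 other list genes passed. With 0.5 RPKM added as well, 2628, 6 and 14 of these passed. The libraries share only replicate numbers (correlation of same-numbered deviations 0.13). With the replicate block 6950 entries passed, and of the 37 genes *Cacnb2* passed as well (0.0494). Voom with the block called 9950 of 17499 entries, 27 of the 37 genes and 99 of 177 other list genes. Among the 27 tested genes, directions reversed only for ones that had not passed: with median centring *Abcc8* (0.0035), *Cacna1d* (0.043), *Trpm2* (0.066), *Itpr3* (0.029) and *Slc8a1* (0.10); after quantile normalization *Cacna1d* (0.044), *Trpm2* (0.044), *Itpr3* (0.045) and *Slc8a1* (0.037); and over the fits with a library left out *Kcnk3* (from -0.072 to 0.30), *Orai1* (from -0.0092 to 0.21), *Trpm2* (from -0.14 to 0.052) and *Slc8a1* (from -0.028 to 0.015). The cause was not tested.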
